A study of Mus musculus with 32 samples.

Results

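Basophil and mast lineage cells were a rare population in osteogenic cultures of mouse bone marrow, with 448 of 90924 kept cells (0.493%, exact 95% interval 0.448% to 0.540%). A cell was counted as a member when it carried at least 2 of the transcripts *Hdc*, *Cpa3*, *Mcpt8*, *Ms4a2* and *Fcer1a*, at least 3 unique molecular identifiers (UMIs, counted transcripts) of these genes in sum, and none of *Cd3d*, *Cd3g* or *Trbc2*. The cells came from femoral marrow of 77 Diversity Outbred (DO) mice, which descend from several inbred founder strains, and were grown as bone marrow-derived stromal cells in an osteoblast differentiation medium with ascorbic acid, β-glycerophosphate and dexamethasone (BMSC-OBs). Cells of 4 or 5 mice were mixed after dissociation, giving 16 pools that share the same culture and no treatment contrast. Each pool was sequenced in 2 runs, and the first run, with 53990642 to 100777353 UMIs per pool, is described. The animals' age was not given in the sources used here, and cells were not assigned to single mice, so a pool and not a mouse is the replicate.

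Basophils and mast cells arise from granulocyte and mast cell progenitors of the marrow. Both store histamine, made by the *Hdc* enzyme, in granules packed with proteases on a proteoglycan core, and both bind IgE through a high-affinity receptor made of an alpha chain (*Fcer1a*), a beta chain (*Ms4a2*) and a signalling gamma chain (*Fcer1g*). Basophils leave the marrow mature, and in the mouse they carry the proteases *Mcpt8* and *Prss34*. Connective tissue mast cells mature in tissue under *Kit* signalling and carry *Cma1*, *Mcpt4* and the tryptases *Tpsb2* and *Tpsab1*. The transcription factor *Gata2* acts in both lineages.

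The sequence upstream of marker genes is shown because *Gata2*, whose protein binds the letters GATA, was among the genes with the largest difference between these and other blood cells. The 250 bases before the RefSeq start of each gene in GRCm38.p6 were searched for GATAA and for TTATC, which is the same motif read on the other strand, and matches are in capitals. Of 13 genes with at least 1 window, 7 held a match in any of their windows, as did 25.5% of 27025 genes. A match is a description of these letters and not a binding site. The genes were chosen with their levels known.
Cpa3 (chr3:20242182-20242431, minus strand): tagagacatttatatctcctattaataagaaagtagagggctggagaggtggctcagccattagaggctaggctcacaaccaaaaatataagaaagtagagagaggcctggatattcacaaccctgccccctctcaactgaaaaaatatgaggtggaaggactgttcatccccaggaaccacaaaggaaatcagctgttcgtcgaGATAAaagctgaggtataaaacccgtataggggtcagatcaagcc
Ms4a2 (chr19:11623720-11623969, minus strand): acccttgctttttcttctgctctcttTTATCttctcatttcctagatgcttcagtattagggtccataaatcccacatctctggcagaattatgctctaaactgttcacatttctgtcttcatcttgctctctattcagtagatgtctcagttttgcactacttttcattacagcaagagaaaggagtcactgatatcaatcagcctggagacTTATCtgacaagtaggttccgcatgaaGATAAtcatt
Fcer1a (chr1:173227230-173227479, minus strand): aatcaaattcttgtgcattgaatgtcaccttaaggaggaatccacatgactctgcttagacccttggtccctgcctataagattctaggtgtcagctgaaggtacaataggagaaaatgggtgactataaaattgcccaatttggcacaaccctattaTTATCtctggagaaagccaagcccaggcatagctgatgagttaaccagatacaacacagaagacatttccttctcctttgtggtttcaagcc
Cd200r3 (chr16:44943428-44943677, plus strand): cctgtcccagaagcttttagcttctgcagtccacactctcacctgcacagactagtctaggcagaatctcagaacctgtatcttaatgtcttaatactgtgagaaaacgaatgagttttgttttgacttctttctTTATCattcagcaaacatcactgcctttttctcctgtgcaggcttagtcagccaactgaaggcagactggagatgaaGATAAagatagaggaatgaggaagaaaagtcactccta
Mcpt8 (chr14:56085198-56085447, minus strand): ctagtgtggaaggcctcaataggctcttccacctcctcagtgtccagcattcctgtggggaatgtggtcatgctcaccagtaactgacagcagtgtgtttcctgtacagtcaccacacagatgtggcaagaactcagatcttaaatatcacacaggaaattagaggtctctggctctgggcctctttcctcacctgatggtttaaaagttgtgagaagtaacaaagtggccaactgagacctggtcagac
*Cpa3*, a mast cell carboxypeptidase, had GATAA starting 45 bases before the start. *Ms4a2* had 3 matches, at -224, -37 and -10, the first and second as TTATC. *Fcer1a* had TTATC at -92, *Cd200r3* had TTATC at -115 and GATAA at -38, and *Mcpt8* had none of these letters in its window.

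The number of members differed widely between pools. The share of kept cells was lowest in pool 1 (0.0131%, 1 cell), had a median of 0.266% and was highest in pool 18 (2.46%, exact 95% interval 2.12% to 2.84%), with a mean of 0.485% ± 0.647 (SD, n = 16 pools). Pool 18 alone held 187 members, or 41.7% of all. Pool 6 followed with 74 members (1.23%) and pool 7 with 33 (1.23%), and the intervals of these 2 pools did not reach that of pool 18. Without pool 18, 261 members remained and the mean share was 0.353% ± 0.388 (SD). In 6 pools fewer than 10 members were found. Intervals cover counting error only.

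**Figure D1:**
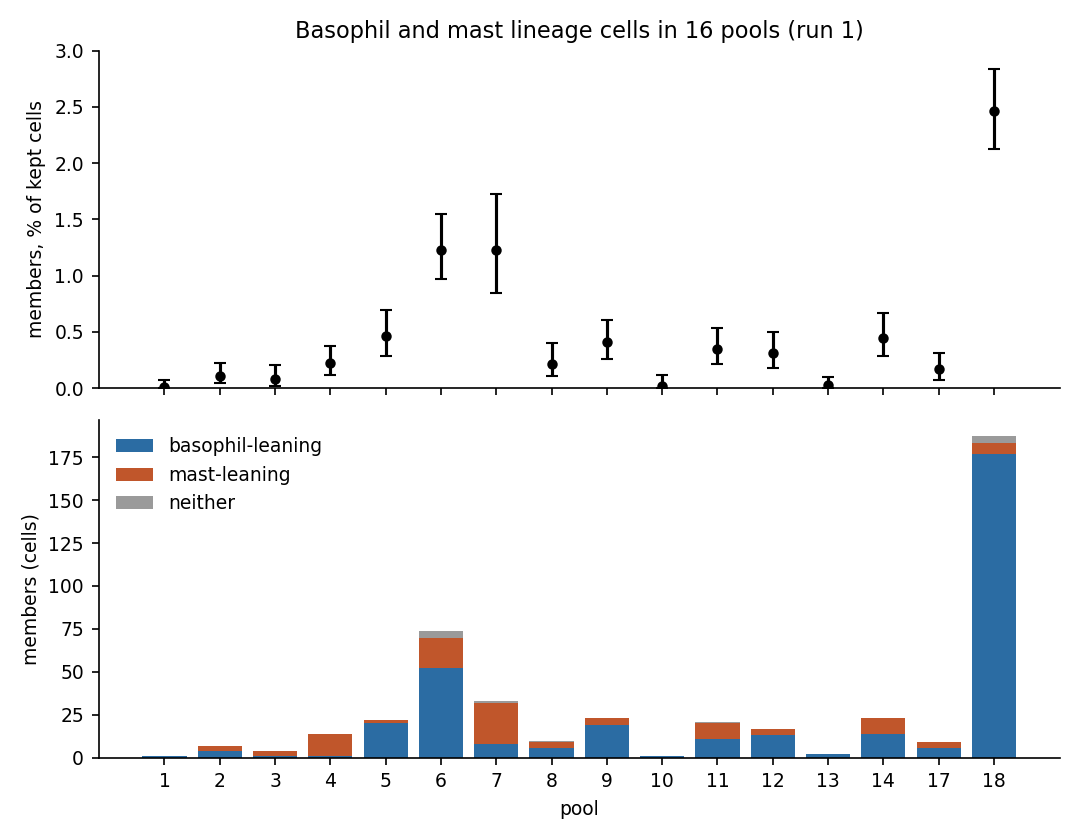
The upper panel plots the share of kept cells that were members in each of 16 pools, with exact 95% intervals, and the lower panel plots the number of members, split by whether basophil or mast cell genes had more UMIs. Pool 18 held 187 of 448 members and was mostly basophil-leaning, while pool 4 held 13 mast-leaning cells among 14 members.

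The values by which the members were chosen are a description. *Hdc* was found in 94.4% of members, *Cpa3* in 83.5%, *Mcpt8* in 75.9% (exact 95% interval 71.7% to 79.8%), *Ms4a2* in 51.1% and *Fcer1a* in 48.9%. In 40276 stromal cells, with collagen UMIs of at least 2% and no *Ptprc* UMI, the shares were 1.40%, 0.223%, 2.58%, 0.0248% and 0.0372% at a median of 12318 UMIs per cell, against 3612.5 in members. By pool, the stromal share reached 3.68% for *Hdc* and 0.206% for *Ms4a2*, both in pool 18, 2.53% for *Cpa3* in pool 6, 6.90% for *Mcpt8* in pool 8 and 0.702% for *Fcer1a* in pool 7. All 5 markers occurred together in 119 members, 4 in 108, 3 in 116 and 2 in 105, and the most frequent pair with no other marker was *Hdc* with *Mcpt8* (52 cells). The marker UMIs of a member had a median of 28 and ranged from 3 to 763.

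At the threshold, 32 members had 3 marker UMIs and a median of 12583.5 UMIs in all. Just outside it lay 69 cells with 2 markers but only 2 UMIs, and 520 cells with at least 3 UMIs of a single marker. Of the latter, 403 carried *Mcpt8* alone and 116 *Hdc* alone, at a median of 22690 UMIs per cell. *Ptprc* (CD45, the common leukocyte surface phosphatase) was seen in 28.1% of the members with 3 marker UMIs, in 11.6% of the first and 17.9% of the second group outside. The 19 cells that met the marker rule but carried T-cell receptor complex transcripts were left out.

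*Ptprc* was detected in 190 members (42.4%, exact 95% interval 37.8% to 47.1%). In the 10 pools with at least 10 members, its level was 56.4 to 137 CPM (UMIs of the gene per 1000000 UMIs of that cell group in the pool; median 97.5) in members and 187 to 273 CPM (median 222) in the other *Ptprc*-positive cells, which were chosen by a *Ptprc* UMI. Members had a lower median number of UMIs per cell than these cells in 7 of 10 pools, with a mean log2 difference of -0.35 ± 1.00 (SD, n = 10 pools) that did not pass an exact two-sided permutation test of the paired differences (p = 0.293, the smallest possible being 0.00195). Members with at least 3 of the 5 markers gave -0.82 in 8 pools and p = 0.0156 in the same exact permutation test. Both selection rules need UMIs, so the depth of either group is not wholly independent of how it was chosen.

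Other cell types' RNA was measured in the members as well. At least 3 UMIs of the complement genes *C1qa*, *C1qb* and *C1qc*, made by macrophages, were found in 15 members, at least 10 UMIs of the neutrophil genes *S100a8* and *S100a9* in 27, and collagen UMIs of at least 0.5% in 73. The rule for precursors of granulocytes with primary granules (at least 2 of *Mpo*, *Elane*, *Prtn3* and *Ctsg*, at least 3 UMIs) was also met by 97 members. Doublet scores marked 24 members (5.36%, against 5.79% of all kept cells). A member's barcode occurred among kept cells of another pool in 9 cases and among its members in 0. The second run gave 462 members, of which 407 were also members in the first run (88.1% of the second and 90.8% of the first).

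Members fell along 2 axes. Counting UMIs of 6 basophil genes (*Mcpt8*, *Prss34*, *Cd200r3*, *Itga2*, *Cyp11a1*, *Il4*) and of 7 mast cell genes (*Kit*, *Cma1*, *Mcpt4*, *Tpsb2*, *Tpsab1*, *Mrgprb1*, *Mrgprb2*), 336 members had more of the former (75%), 101 more of the latter (22.5%) and 11 equal numbers. This cut was set after the data were seen and is a range of a score, so what follows about it is a description with no test. In 55 members both sums lay within 2 UMIs of each other, and in 58 both reached at least 3. Basophil-leaning members had a median of 21 basophil and 0 mast cell UMIs, and mast-leaning members a median of 68 mast cell and 2 basophil UMIs. The median total was 3679 UMIs in the former and 3367 in the latter.

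**Figure D2:**
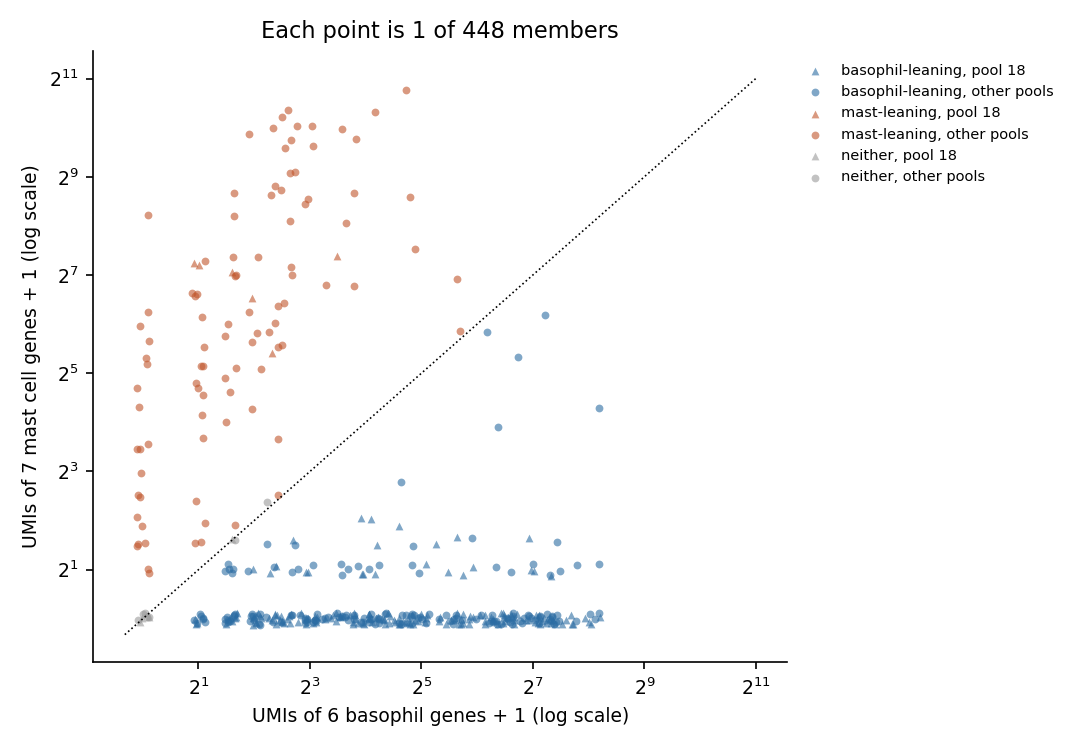
Each point is 1 of 448 members, with the UMIs of 6 basophil genes plus 1 on the horizontal and of 7 mast cell genes plus 1 on the vertical axis, both on log scales and slightly scattered so that equal values stay visible; triangles are pool 18 and the dotted line marks equal sums. Most members lie near an axis, with 336 below the line and 101 above it.

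The mix of both kinds differed between pools. Mast-leaning cells were 13 of 14 members in pool 4 (92.9%, exact 95% interval 66.1% to 99.8%) and 24 of 33 in pool 7 (72.7%, 54.5% to 86.7%). They were 6 of 187 in pool 18 (3.21%, 1.19% to 6.85%) and 18 of 74 in pool 6 (24.3%, 15.1% to 35.7%). The intervals of pools 4 and 7 did not overlap those of pools 6 and 18. These intervals cover counting error over cells only and not differences between mice, to which cells were not assigned. *Mcpt8*, which helped to set the split, was detected in 321 basophil-leaning and 17 mast-leaning members, and without pool 18 the share of all members with *Mcpt8* was 63.6%. Not every basophil gene of the split went with *Mcpt8*. *Cd200r3* had medians of 146 CPM in basophil-leaning and 196 CPM in mast-leaning members. It was higher in the latter in 5 of 5 pools with at least 5 members of each leaning, and *Cyp11a1* in 2 of 5.

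Genes outside both lists also differed between the leanings, over 10 pools with at least 5 basophil-leaning and 6 pools with at least 5 mast-leaning members. *Hpgds*, the synthase of prostaglandin D2 in blood cells, had 188 to 448 CPM (median 246) in mast-leaning and 0 to 13.7 CPM (median 5.39) in basophil-leaning members. *Fcer1g* had 2285 to 3861 CPM (median 2533) in the former and 151 to 1522 CPM (median 726) in the latter. The pools of the 2 leanings were not the same, with 5 in common. How many of all genes had ranges so far apart was not counted. Over the same pools 15025 genes had a UMI, of which 46.4% had the higher median in basophil-leaning and 21.6% in mast-leaning members and the rest equal medians, at 38718 to 972046 UMIs per pool in the former and 14246 to 249064 in the latter. RNA of other cell types was also compared between the leanings. All 12 stromal and matrix genes had the higher median in basophil-leaning members. So did 11 of 19 macrophage genes (2 in mast-leaning) and 6 of 13 neutrophil genes (0 in mast-leaning). The last count was near the 46.4% over all genes. *Ibsp* had medians of 13188 and 6069 CPM and *S100a8* of 391 and 30.5 CPM in basophil- and mast-leaning members, and their part in these differences was not tested.

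Of 21 genes of the IgE receptor and its signalling, 15 had the higher median in mast-leaning and 5 in basophil-leaning members, and of 22 granule genes 12 and 10 did. Over all genes the shares were 21.6% and 46.4%. *Ctsg* went against the named examples, with medians of 869 CPM in basophil-leaning and 175 CPM in mast-leaning members, as did *Lamp1*, a lysosomal membrane protein, with 421 and 302 CPM. *Lat*, the adaptor on which T-cell and IgE receptor signals assemble, had 140.4 to 611 CPM (median 290.1) in mast-leaning and 6.55 to 74.5 CPM (median 24.5) in basophil-leaning members, and *Prkcb*, a protein kinase C, had 168 to 377 against 0 to 51.7 CPM. *Slc6a4*, the serotonin transporter, had 132 to 1053 CPM (median 262) against 0 to 111 CPM (median 5.75). *Tph1*, which makes the serotonin precursor, had 28.1 to 1516 against 0 to 64.4 CPM, with some overlap. *Serpinb1a*, a protease inhibitor, had 1937 to 2943 against 62.6 to 919 CPM.

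Of 25 cytokine and chemokine genes, 14 had the higher median in basophil-leaning and 3 in mast-leaning members, and 8 had equal medians. Over all genes the higher median was in basophil-leaning members for 46.4% and in mast-leaning members for 21.6%. *Ccl2* had medians of 23.3 CPM in basophil-leaning and 230.2 CPM in mast-leaning members, and *Il4*, part of the split, was higher in the latter in 5 of 5 pools. *Il4* had only 16 UMIs in mast-leaning and 90 in basophil-leaning members over these pools. It was found in 16.8% of all mast-leaning and 19.6% of all basophil-leaning members. *Ccl9*, a chemokine for myeloid cells, had 25.8 to 1354 CPM (median 346) in basophil-leaning and 0 to 44.8 CPM (median 18.6) in mast-leaning members, and it was higher in the former in 5 of 5 pools with both. *Ccl3*, another chemokine, had medians of 273 and 10.5 CPM, and *Il6* medians of 16.3 and 0 CPM, with overlapping ranges. *Mpo*, the myeloperoxidase of primary granules, had 106 to 2133 CPM in basophil-leaning and 0 to 21.1 CPM in mast-leaning members. It was found in 27.1% of all basophil-leaning members. *Elane* had 529 UMIs in basophil-leaning and 0 in mast-leaning members over these pools. Of all basophil-leaning members 6.55% carried *Elane*, and of all mast-leaning members 4.95%. Members that also met the precursor rule, 97 in all, were not left out here, and their part was not tested. *Gata2* itself had medians of 237 and 231 CPM in ranges that overlapped.

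**Figure D3:**
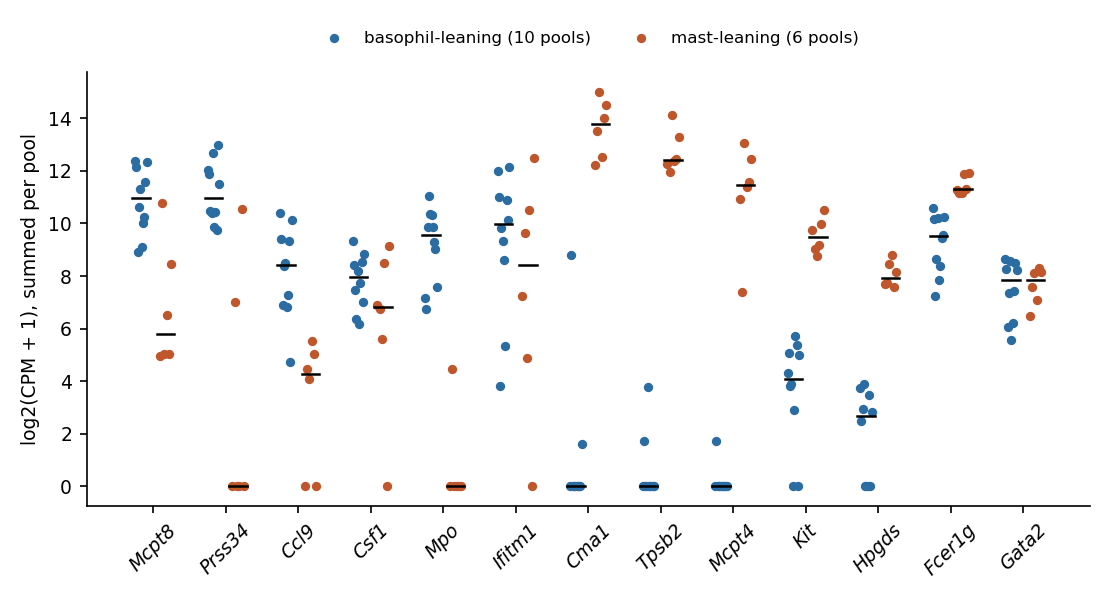
Summed level per pool, as log2(CPM + 1), of 13 genes in basophil-leaning members (10 pools) and mast-leaning members (6 pools); each point is a pool and the black line is the median. The mast cell genes *Cma1*, *Tpsb2*, *Mcpt4* and *Kit* and the basophil genes *Mcpt8* and *Prss34* helped to set the split and are shown as a description, while *Hpgds* and *Fcer1g* did not, and *Gata2* has medians of 237 and 231 CPM. The basophil genes *Cd200r3* and *Il4*, also of the split and not shown, were higher in mast-leaning members in 5 of 5 pools with both leanings. *Il4* had only 16 UMIs in mast-leaning members.

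Against the other *Ptprc*-positive cells of the same pools, members had higher levels of *Gata2*, of the histamine transporter *Slc18a2* and of mast cell and basophil genes outside the rule, and lower levels of macrophage and neutrophil genes. UMIs were summed per pool and cell group in the 10 pools with at least 10 members, and 9196 genes passed the filter on low counts. With edgeR's quasi-likelihood test, the pool as a block and a Benjamini-Hochberg adjusted p of at most 0.05, 923 genes (10.0%) were higher and 1428 (15.5%) lower in members. The comparison cells exclude every cell that met the marker rule. A gene near 0 or low in them, such as *Gata2*, *Slc18a2*, *Cma1*, *Il1rl1* or *Hgf*, could pass the filter only through the members. A gene near 0 in the members, such as *Csf1r*, could likewise pass only through the comparison cells. The direction of either kind was thereby fixed, and its test is not independent support. A *C1q* UMI was found in 72.0% of the comparison cells and 21.4% of members, and without such comparison cells 410 genes were higher and 497 lower. Of 79 called named genes with a value in that comparison, the log2 fold changes of 31 were smaller by over 1.5 times or reversed. The study's limits on ribosomal transcripts gave 453 and 851. Leaving out single pools gave 670 (without pool 6) to 953 higher genes.

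The transcription factor *Gata2* (ENSMUSG00000015053, chr6:88193891-88207032 in GRCm38) had 56.4 to 368 CPM (median 199) in members and 0 to 2.44 CPM (median 0.722) in the other cells, without overlap, for a log2 fold change of 7.73 ± 0.30 (SE, n = 10 pools; edgeR adjusted p = 1.69e-12). Of 33 listed factors of these and neighbouring lineages, 26 were tested, 8 were higher and 12 lower. *Ikzf2* (Helios) was higher by 3.36 ± 0.30 and *Myb*, a factor of progenitors, by 2.95 ± 0.32 on the log2 scale (edgeR adjusted p = 1.68e-07 and 1.47e-06). The monocyte factor *Irf8* (-3.86 ± 0.35) and the inhibitor of helix-loop-helix proteins *Id2* (-2.47 ± 0.22) were lower in 10 of 10 pools (adjusted p of 1.87e-07 or less, edgeR). Against comparison cells without *C1q* UMIs *Ikzf2* (2.17), *Myb* (1.45) and *Id2* (-1.54) passed with smaller values. *Gata1*, with 24 UMIs in the members of the 10 pools, did not pass the filter.

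Among 14 genes for histamine, leukotrienes and prostaglandins, 11 were tested, 3 were higher and 0 lower, at a median log2 fold change of 0.03 against -0.07 over all genes. *Slc18a2* (chr19:59260896-59296012), the vesicular amine transporter that loads histamine into granules, had 95.8 to 307 CPM (median 139) in members and 0.416 to 2.00 CPM (median 0.973) in the other cells. The groups did not overlap, and the log2 fold change was 7.27 ± 0.23 (adjusted p = 2.26e-13, edgeR). *Alox5*, the 5-lipoxygenase that starts leukotriene synthesis, was higher by 2.80 ± 0.31, and its partner *Alox5ap* by 1.46 ± 0.23 (edgeR adjusted p = 1.75e-06 and 7.86e-05). *Hpgds* had 6.05 to 212 CPM in members and 27.5 to 58.3 CPM in the other cells, ranges that overlapped, and did not pass.

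Granule genes split into higher and lower sets. Of 22 listed, 21 were tested, 7 were higher and 6 lower. *Srgn*, the core protein of granule proteoglycan, had 1706 to 4476 CPM (median 3366) in members and 397 to 1026 CPM (median 604) in the other cells (log2 fold change 2.38 ± 0.16, edgeR adjusted p = 8.4e-09). *Ndst2*, which sulphates heparin chains, rose by 2.61 ± 0.30, and *Rab27b*, a GTPase of granule release, by 3.61 ± 0.27. The serine protease *Ctsg* was higher by 3.42 ± 0.35 and *Gzmb* (granzyme B) by 4.58 ± 0.60, whereas the lysosomal proteases *Ctsb* (-3.40 ± 0.26), *Ctsl* (-2.04) and *Ctsd* (-1.46) were lower; each of these passed edgeR's adjusted threshold. *Ctsb* was at -1.95 without *C1q*-bearing comparison cells.

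**Figure D4:**
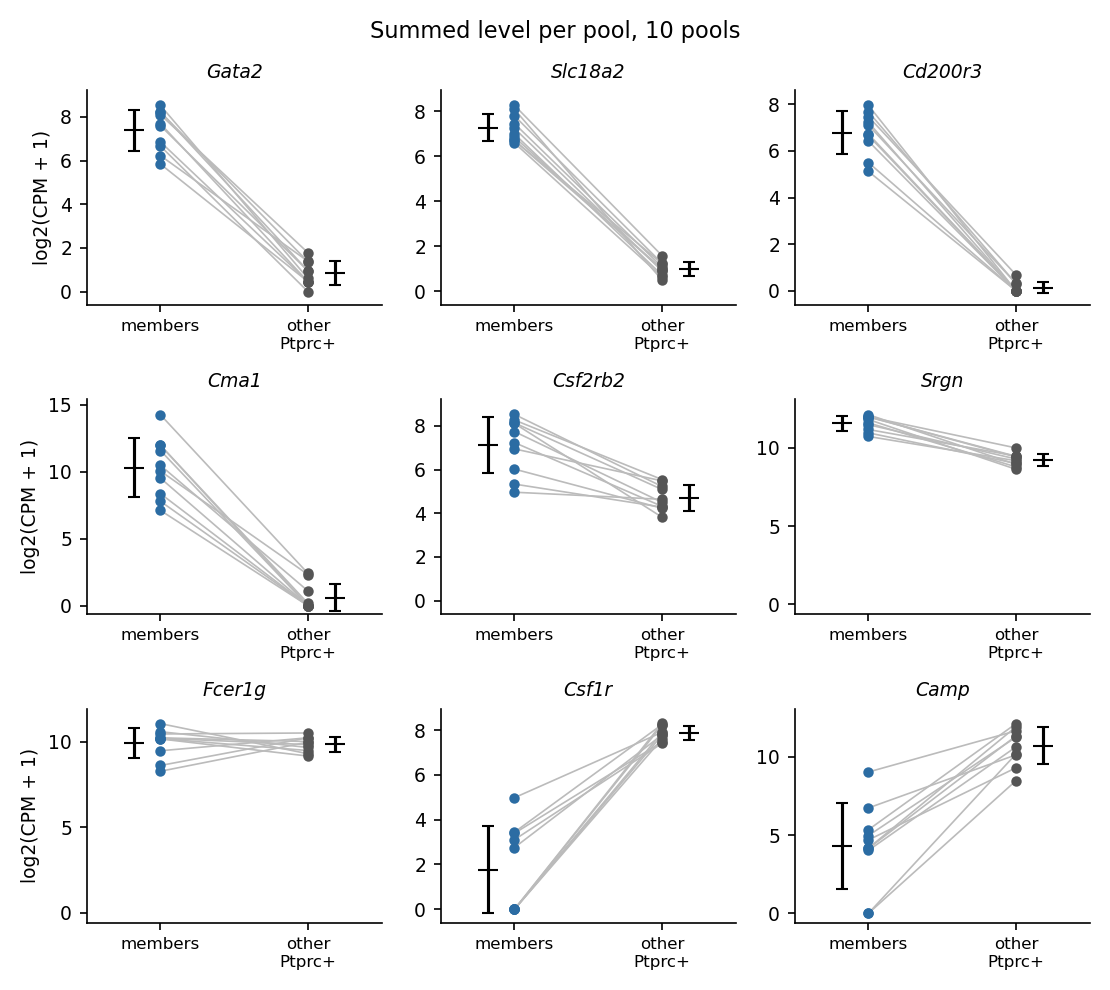
Summed level per pool, as log2(CPM + 1), of 9 genes in members and in other *Ptprc*-positive cells; grey lines join the same pool (10 pools) and the black marks give mean ± SD. *Gata2*, *Slc18a2*, *Cd200r3* and *Cma1* are separated in every pool, *Fcer1g* overlaps at medians of 1179 and 969 CPM, and *Csf1r* and *Camp* are lower in members in all 10 pools.

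Genes of the IgE receptor pathway were called in both directions. Of 21 listed genes 20 were tested, 5 were higher (among them *Lat*, *Lat2*, *Prkcb* and *Btk*) and 3 lower (*Syk*, *Lyn* and *Prkcd*). Over all tested genes 10.0% were higher and 15.5% lower, and the count of lower genes was near that share. The median log2 fold change of the list was 0.20 against -0.07 over all genes. *Lat* had 8.75 to 226 CPM (median 59.9) in members and 1.39 to 26.8 CPM (median 3.62) in the other cells (3.33 ± 0.44, edgeR adjusted p = 1.52e-05), and *Lat2*, its relative in mast and B cells, was higher by 1.76 ± 0.25. *Lat*, low in most pools of the other cells, passed the filter mainly through the members, so its test is not independent support. *Syk*, the kinase recruited by the gamma chain, was lower by 1.40 ± 0.26 on the log2 scale (edgeR adjusted p = 0.00042), in 9 of 10 pools, and by 0.85 against comparison cells without *C1q* UMIs, which did not pass (edgeR adjusted p = 0.0678). *Prkcb* (1.17) did not pass in the second run (0.86), without marked doublets (1.12), with no filter (1.03) or without pool 4, 6, 7 or 14 (0.90 to 1.17). *Btk* (0.94) did not pass among members with *Ptprc* (0.99), with the ribosomal limits (0.72) or in pools with at least 20 members (0.81). Against comparison cells without *C1q* UMIs *Lat* was higher by 2.06 and *Btk* by 1.43. *Fcer1g* had 311 to 2159.5 CPM (median 1179) in members and 577 to 1475 CPM (median 969) in the other cells, a difference of 0.13 ± 0.27 that did not pass (edgeR adjusted p = 0.795) and passed with at least 3 markers per member (0.82, edgeR adjusted p = 0.00376) and with at least 5 marker UMIs (0.67, edgeR adjusted p = 0.0499). *Lat* is also a T-cell gene, and of 10 T-cell genes 2 were tested, *Lat* was the 1 that was higher, *Cd2* and *Cd8a* had no UMI in members and *Cd3e* had 19.

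Lineage genes not used in the rule were among the largest differences. *Cma1* (mast cell chymase, chr14:55941451-55944675) had 138 to 19658 CPM (median 1249) in members and 0 to 4.32 CPM (median 0) in the other cells, with 10763 and 87 UMIs over the 10 pools. *Cd200r3* (an activating receptor of basophils and mast cells, chr16:44943678-44981380) had 33.8 to 247 CPM (median 121) against 0 to 0.609 CPM, and *Cyp11a1* (the enzyme that starts steroid synthesis, chr9:58006411-58027023) 95.8 to 978 CPM (median 359.9) against 0.308 to 3.02 CPM. None of these ranges overlapped, and the log2 fold changes were 11.64 ± 0.62, 9.68 ± 0.36 and 8.47 ± 0.31 (edgeR adjusted p of 3.62e-10 or less). These genes were near 0 in the comparison cells and passed the filter through the members, so their direction was fixed in advance. Where most pools of the other group are at 0, the fitted size depends on the prior count of the fit.

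Of 21 basophil genes 16 were tested, 8 were higher and 2 (*Cebpa* and *Clec12a*) lower, and of 19 mast cell genes 6 were tested, 5 were higher and 1, *Mitf*, lower (-1.28 ± 0.33). Listed genes near 0 in the comparison cells, such as *Cma1* and *Cd200r3*, could be tested only where members had them. The share of these lists called higher was therefore partly set by the filter. *Mitf* did not pass under 5 alternatives, at -0.77 with at least 3 markers and -0.22 without *C1q*-bearing comparison cells. Several lineage genes, at 0 or close to it in the comparison cells and in some pools of members, did not pass the filter on low counts. *Prss34* had 0 to 4620.4 CPM in members (median 1105; 6464 UMIs) and at most 2.13 CPM in the other cells. *Tpsb2* had 0 to 10741 CPM (median 517) and *Mcpt4* 0 to 5014 CPM (median 209) in members, and both were at most 2.93 CPM in the other cells. *Il4*, a cytokine of basophils, had 109 UMIs in members and 7 in the other cells. *Tpsb2* and *Tpsab1* are related tryptase genes, and the split of reads between them was not tested.

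Receptors for IL-33, IL-3, TSLP and stem cell factor were higher in members, and the macrophage growth factor receptor was lower. Of 27 listed receptors 23 were tested, 10 were higher and 9 lower. *Il1rl1* (the IL-33 receptor ST2) had 24.2 to 327 CPM (median 111) in members and 0.260 to 5.88 CPM in the other cells (6.01 ± 0.39, edgeR adjusted p = 5.42e-09). Low in the other cells, *Il1rl1* passed the filter only through the members, so its direction was fixed in advance. *Csf2rb2*, the beta chain used by the IL-3 receptor in the mouse, was higher by 2.62 ± 0.28, *Csf2rb* by 1.60 ± 0.24, *Il3ra* by 1.17 ± 0.23 and *Crlf2* (the TSLP receptor) by 1.12 ± 0.20 (edgeR adjusted p of 0.000712 or less); *Csf2rb* and *Csf2rb2* are close copies. *Kit* was higher by 2.96 ± 0.27 in 10 of 10 pools. It was part of the leaning split, with 438 to 1474 CPM in mast-leaning members (81.2% of cells) and 0 to 51.2 CPM (median 16.2; 14.9% of cells) in basophil-leaning members. *Csf2ra*, the alpha chain of the GM-CSF receptor, was lower by 1.55 ± 0.31 on the log2 scale, and *Csf1r*, the macrophage growth factor receptor, had 0 to 30.5 CPM against 168 to 313 CPM (-4.62, and -2.78 without *C1q*-bearing comparison cells).

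Of 25 cytokine and chemokine genes 17 were tested, 3 were higher and 5 lower. *Hgf* (hepatocyte growth factor) had 25.1 to 204 CPM (median 115) in members and 2.86 to 7.01 CPM (median 5.25) in the other cells, without overlap (4.55 ± 0.34, edgeR adjusted p = 3.89e-08). Low in the other cells, *Hgf* passed the filter only through the members, so its direction was fixed in advance. *Csf1*, the macrophage and osteoclast growth factor, was higher by 1.25 ± 0.28 in 8 of 10 pools, and *Il6* by 1.82 ± 0.44 in 7 of 10 (edgeR adjusted p = 0.0026 and 0.00448). *Tnf* (-4.00 ± 0.37), *Igf1* (-3.75 ± 0.35), *Il10* (-3.72 ± 0.41) and *Cxcl2* (-3.54 ± 0.57) were lower in 10 of 10 pools. *Ccl2* was lower too (-2.34 ± 0.33), but against comparison cells without *C1q* UMIs it was higher by 1.14 (edgeR adjusted p = 0.0367). In that comparison *Igf1* did not pass (-1.07, edgeR adjusted p = 0.109), and *Tnf* was at -1.93 and *Cxcl2* at -2.18. *Ccl3* (0.38 ± 0.57) and *Ccl9* (0.67 ± 0.41) did not pass. Among members with *Ptprc* both were higher (1.42 and 1.66, edgeR adjusted p = 0.0373 and 0.00233), and *Ccl9* also passed without *C1q*-bearing comparison cells (1.99) and without the pool as a block (1.25).

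The other genes with the largest positive log2 fold changes were *Csrp3* (7.90), *Itga2b* (6.42), *Cd55* (5.00), *Ifitm1* (4.74), *Rab38* (4.65), *Cd34* (4.51), *Adgrg1* (4.40) and *Tespa1* (4.31), each higher in 10 of 10 pools and past edgeR's threshold. *Itga2b* is the platelet integrin, *Cd55* protects cells from complement, *Cd34* marks progenitors and mast cells, and *Tespa1* takes part in IgE and T-cell receptor signalling. *Itga2b* and *Car2* were the higher genes among 3 tested of 13 megakaryocyte and erythroid genes, while *Pf4* was lower (-3.91; 0.076 without *C1q*-bearing comparison cells) and *Ppbp*, *Hba-a1* and *Hba-a2* had no UMI in members. *Car2* (1.54) did not pass with at least 3 markers (1.41), among members with *Ptprc* (0.53), with the ribosomal limits (1.21) or without *C1q*-bearing comparison cells (0.98).

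**Figure D5:**
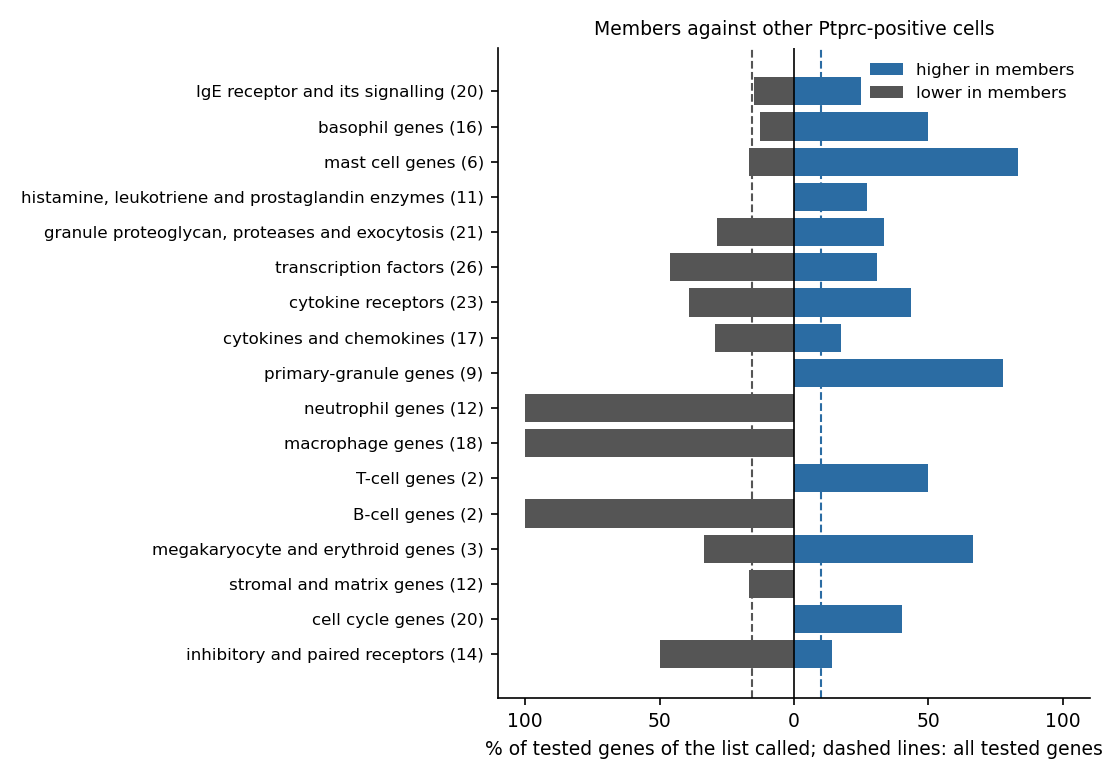
Share of the tested genes of each list that were higher (right) or lower (left) in members than in other *Ptprc*-positive cells, with the number of tested genes in brackets; dashed lines mark the shares over all tested genes, 10.0% higher and 15.5% lower. All tested neutrophil, macrophage and B-cell genes are lower, and 7 of 9 genes of the primary-granule list are higher.

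Genes of other blood lineages were mostly lower. All 12 tested neutrophil genes, all 18 tested macrophage genes and both tested B-cell genes were lower in members. A gene near 0 in members, such as *Csf1r*, could pass the filter only through the comparison cells. Its direction was thereby fixed, so these counts were partly set by the filter. Summed over 19 macrophage genes, the level was 256 to 1774 CPM in members and 9425 to 21831 CPM in the other cells, and *Csf1r*, *C1qb* and *Irf8* had 0 UMIs in some pools. Summed over 13 neutrophil genes it was 25.1 to 13082 CPM in members against 5812 to 55748 CPM. Of 7 B-cell genes *Cd79a*, *Ms4a1* and *Pax5* were among those that had no UMI in members, and the largest negative fold changes over all genes named were those of *Ighm* (-5.86), *Camp* (-5.49), *Jchain* (-5.46), *Chil3* (-5.24), *Cd74* (-5.18), *H2-Aa* (-5.00), *Slc11a1* and *H2-Eb1* (both -4.94), *Ccl5* (-4.90) and *Ms4a8a* (-4.87), leaving *Igkc* (-6.34) aside, which was lower in 9 of 10 pools. Of 12 stromal and matrix genes *Ibsp* (-0.48) and *Col1a2* (-0.56) were lower, a share near the 15.5% over all genes, and the rest did not pass. Neither passed with at least 3 markers (-1.23 and -1.01), among members with *Ptprc* (-0.63 and -0.62), with the ribosomal limits (-0.26 and -0.15) or in collagen-poor droplets (-0.14 and -0.25). Both also missed the threshold without marked doublets (-0.49 and -0.52), without *C1q*-bearing comparison cells (-0.57 and -0.56) and without the pool as a block (-0.46 and -0.49). The same held in pools with at least 20 members (-0.37 and -0.38), without pool 6 (-0.48 and -0.53) and without pool 9 (-0.39 and -0.45). The sum over the list was 23116 to 74998 CPM in members and 30166 to 81975 CPM in the other cells, so stromal RNA was present in both. Its part in the other results was not tested.

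Of 9 eosinophil genes 0 passed the filter on low counts, so none was tested. Their sum was 5.91 to 1077 CPM (median 21.3) in members and 1.30 to 623 CPM (median 17.2) in the other cells. *Prg2*, the eosinophil major basic protein, had no UMI in the members of 7 pools and reached 930.0 CPM in 1.

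Of 14 inhibitory and paired receptors tested, *Cd200r3* and *Cd200r4* (3.35 ± 0.33) were higher, 5 did not pass and 7 were lower, among them *Sirpa* (-3.05 ± 0.25; -1.75 without *C1q*-bearing comparison cells), which gives an inhibitory signal on myeloid cells, *Cd300lb* (-3.87 ± 0.46) and *Fcgr3* (-1.20 ± 0.19; 0.037 without *C1q*-bearing comparison cells). *Milr1*, the mast cell immunoglobulin-like receptor, did not pass.

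Most genes of the primary-granule list were higher in members. Of 9 tested, 7 were higher and 0 lower, at a median log2 fold change of 2.29 against -0.07 over all genes. The list also holds *Calr*, *Nkg7* and *Plac8*, which are not granule proteases. *Mpo* had 0 to 2214 CPM (median 513) in members and 35.3 to 173 CPM (median 90.9) in the other cells (2.58 ± 0.41, edgeR adjusted p = 0.000108), *Plac8* had 449 to 4857 against 59.7 to 362 CPM (3.16 ± 0.25) and *Ms4a3*, a gene of granulocyte and monocyte progenitors, was higher by 2.29 ± 0.30. Against comparison cells without *C1q* UMIs *Mpo* (1.18, edgeR adjusted p = 0.0966), *Ms4a3* (0.83) and *Nkg7* (0.35) did not pass, *Plac8* was higher by 1.72 and *Ctsg* by 1.98, and 4 genes of the list were higher. *Elane*, the neutrophil elastase, did not pass (0.64 ± 0.64, edgeR adjusted p = 0.527), and among members with at least 3 markers it was lower than in the other cells (-6.11, edgeR adjusted p = 6.31e-11). With that stricter rule 6 genes of the list were higher and 2 lower. The 97 members that also met the precursor rule are part of these values.

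Genes of the cell cycle were higher in part. Of 20 tested, 8 were higher and 0 lower, led by *Tyms* (thymidylate synthase, 1.19 ± 0.25) and *Mcm3* (a subunit of the replication helicase, 1.14 ± 0.28). *Top2a*, the topoisomerase of dividing cells, had 0 to 306 CPM (median 123) in members and 53.5 to 135 CPM (median 90.6) in the other cells (0.76 ± 0.26, edgeR adjusted p = 0.036). That call was lost under 12 alternatives, with a value of 0.070 without *C1q*-bearing comparison cells and 0.59 to 0.78 without pool 5, 6, 7, 8, 9 or 18 in turn. The others were the second run (0.62), the ribosomal limits (0.83), no filter (0.62), DESeq2 (0.69) and leaving out marked doublets (0.62). Without marked doublets 3 of the 20 were higher, without pool 6 also 3, and without comparison cells that had *C1q* UMIs 0 (*Tyms* 0.51 and *Mcm3* 0.71). In cells thinned to 1500 UMIs, leaving out 74 members and 811 comparison cells that were shallower, *Top2a* was seen in 12.0% of members (exact 95% interval 8.91% to 15.8%) and 6.11% of comparison cells (5.71% to 6.54%), and in 24.3% and 14.2% before thinning. *Mki67*, another gene of dividing cells, was seen in 9.09% (6.38% to 12.5%) and 8.44% (7.97% to 8.92%), and in 19.9% and 22.9% before thinning. These intervals cover counting error over cells pooled across pools, and they are not a comparison of replicates. At least 3 UMIs of the 20 genes were seen in 25.9% of thinned members and 13.5% of thinned comparison cells. By pool, the share was 11.8% to 40.4% (median 24.2%) in members and 9.78% to 21.3% (median 15.96%) in comparison cells, higher in members in 7 of 9 pools, with a mean difference of 9.33 ± 11.1 percentage points (SD, n = 9 pools).

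The members were also set against the 736 precursors with primary granules. The 97 members that also met the precursor rule stayed on the member side, and their part was not tested. Over the same 10 pools 4353 genes were tested, without the genes of either rule, and 341 (7.83%) were higher and 328 (7.54%) lower in members (edgeR adjusted p of at most 0.05). Without pool 6 the counts were 222 and 246, and without pool 18 they were 225 and 253. *Gata2* had 0 to 7.64 CPM (median 2.06) in the precursors, without overlap with the members (5.75 ± 0.31, edgeR adjusted p = 5.67e-09). Near 0 in the precursors too, it could be tested only through its level in the members. *Cma1* had 10763 UMIs in members and 3 in precursors, *Cd200r3* 455 and 4, and *Il1rl1*, which was not tested here, 510 and 2.

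Receptors and secondary granule proteins were among the genes that differed between members and precursors. *Csf2rb2* was higher in members by 4.66 ± 0.36, *Csf2rb* by 2.93 ± 0.34, *Lat2* by 3.93 ± 0.34 and the amino acid transporter *Slc7a8* by 3.93 ± 0.19 (edgeR adjusted p of 2.22e-05 or less), all without overlap. *Cyp11a1* (6.23), *Cd55* (5.47), *Itga2b* (5.47), *Slc18a2* (5.00), *Rab27b* (4.00), *Ctla2a* (3.93), *Tmem64* (3.45) and *Rgs1* (2.77) were the others with the largest positive fold changes. *Fcer1g* was higher by 1.25 ± 0.30 (edgeR adjusted p = 0.00962) and *Csf1* by 2.60 ± 0.43, while *Plac8* did not pass (-0.40 ± 0.21) except with no filter on low counts (-0.55, edgeR adjusted p = 0.000186). Of the primary-granule list 5 genes were tested, which leaves out *Mpo*, *Elane*, *Prtn3* and *Ctsg* as genes of the precursor rule. Of these 5, 1 was higher and 2 lower in members. The sum of all 9 includes the genes of the precursor rule. It was 5499 to 13808 CPM in members and 12212 to 17652 CPM in precursors, lower in members in 9 of 10 pools. *Ccl9* (1.95) was higher, and did not pass in the second run (1.48).

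All 8 tested neutrophil genes were lower in members than in precursors. A gene near 0 in members could be tested only through its level in the precursors, which partly set this count. *Camp*, a secondary granule peptide, had 0 to 519 CPM (median 20.8) in members and 2909 to 13041 CPM (median 8892) in precursors (-7.65 ± 0.58, edgeR adjusted p = 2.76e-07). *Chil3* (-6.82 ± 0.63), *S100a9* (-5.32 ± 0.76), *S100a8* (-5.29 ± 0.71), *Wfdc21* (-5.25), *Fcnb* (-5.14), *Ly6c2* (-4.78), *Ngp* (-4.74), *Olfm4* (-4.71) and *Lrg1* (-4.20) were also lower in 10 of 10 pools. Of 17 cell cycle genes tested, 0 were higher and 8 lower than in precursors. *Top2a* was lower by 0.79 ± 0.24 on the log2 scale (edgeR adjusted p = 0.0367). It did not pass without the pool as a block (-0.68, edgeR adjusted p = 0.146). Nor did it pass without pool 5, 9, 11, 12, 14 or 18 in turn (-0.81 to -0.66, edgeR adjusted p of 0.060 to 0.0786). The members are the same as in the comparison with *Ptprc*-positive cells.

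Members with a *Mcpt8* UMI (340) were set against those without (108) in the 6 pools with at least 5 of each. Of 1639 genes tested, 0 (0%) were higher and 0 (0%) lower at an edgeR adjusted p of 0.05, 207 had an unadjusted p under 0.05, and DESeq2 called 45 higher and 27 lower. On simulated data with 200 genes changed by 1 on the log2 scale the same test recovered 0% in this comparison, so a difference of that size was not detectable with this test. Without pool 6, 27 genes were higher and 13 lower. Members with *Mcpt8* were also deeper, with a median of 3967.5 UMIs against 2533.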

How the data were processed

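Counts of UMIs per gene and droplet were deposited by the authors for 16 pools in 2 runs, made with Cell Ranger 5.0.0 on GRCm38, not normalized and before their cell filters; the annotation release was not given in the sources used here. The first run was used, with 3460 to 9429 barcodes per pool. Barcodes with 400 to 6200 detected genes and at most 10% mitochondrial UMIs were kept. The study states its limits of 400 and 6200 as reads per cell; here they were applied to detected genes. Its mitochondrial limit was used, and not its ribosomal limits, its removal of doublets or its assignment to mice by genotype; ribosomal limits and removal of doublets by scrublet score were alternatives.

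The members, gene lists and tests were chosen with earlier results of these data known. Sums of UMIs per pool and cell group entered edgeR 4.0.16 under R 4.3.3, with TMM scaling, the filterByExpr filter, the pool as a block, quasi-likelihood tests and Benjamini-Hochberg adjustment; DESeq2 1.42.0 was an alternative. The genes of the selection rules stayed out of the tests. Each standard error was obtained by dividing the size of the log2 fold change by the square root of its F statistic. The 2 groups compared within a pool come from the same mixture of mice and the same library, which pairs them. Cells were mixed after culture and not assigned to mice, so which mice each group came from is not known. Deviations of same pools correlated at a median of 0.117 (lowest -0.0605) over genes in the comparison with *Ptprc*-positive cells and 0.179 in that with precursors. On simulated data, 63% of 200 genes changed by 1 on the log2 scale were recovered in the former (9196 genes) and 82.5% in the latter (4353 genes).

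Named genes were the 15 highest and 10 lowest log2 fold changes past the threshold with at least 20 CPM and 1 direction in all pools, leaving out clone-named and mitochondrial genes, up to 6 per list, and listed genes singled out for a known role. Shares carry exact (Clopper-Pearson) intervals. Coordinates are GENCODE M21. Python 3.11.15, SciPy 1.17.1 and scanpy 1.11.5 were used. Some genes of the lists are counted but not reported by name here.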

Additional observations from a re-analysis of the deposited data

How the results depend on the processing

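Against other *Ptprc*-positive cells, 2351 genes were called. Without comparison cells that had *C1q* UMIs the count was 907 (410 higher, 497 lower; 84 in place of 130 genes of the lists), with the ribosomal limits 1304 (453 higher, 851 lower), with at least 3 markers 614 genes were higher and with *Ptprc*-positive members only 615. Leaving out 1 pool gave 1858 to 2421 calls, 670 to 953 higher and 1188 to 1468 lower, 115 to 141 of them in the lists. Without the replicate block (the pool) 2755 were called (1175 higher, 1580 lower); leaving out the block moved no count of calls by over 1.5 times. Against precursors 669 genes were called, 1564 with no filter on low counts (764 higher, 800 lower), 618 without the block and 468 to 764 without 1 pool (222 to 389 higher, 246 to 375 lower). Between members with and without *Mcpt8*, 0 were called in the second run, with DESeq2 size factors and without the block, 1 (lower) without marked doublets, 4 (1 higher, 3 lower) in collagen-poor droplets, 72 with DESeq2 (45 higher, 27 lower), 279 with no filter (237 higher, 42 lower) and 0 to 40 without 1 pool (0 to 27 higher, 0 to 13 lower). The share of members with *Mcpt8* was 79.9% with at least 3 markers and 63.6% without pool 18, which was added after the data were seen. The log2 difference in UMIs per cell was -0.82 with at least 3 markers, -0.71 with at least 5 marker UMIs, -0.69 in collagen-poor droplets and -0.93 with the ribosomal limits, in 8, 9, 9 and 8 pools, each with an exact permutation p = 0.0156; without 1 pool it was -0.57 to -0.27 and did not pass.

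For 124 fold changes of named genes, the alternatives gave 2719 values, of which 2604 kept direction and side of the threshold, 97 lost the threshold, 7 gained it and 11 changed sign. Signs reversed for *Ccl2* (1.14), *Pf4* (0.076) and *Fcgr3* (0.037) without *C1q*-bearing comparison cells, for *Fcer1g* with no filter (-0.013) and without pool 4 (-0.043, in a range of -0.043 to 0.34 without 1 pool), and for *Elane* in the second run (-1.31), with at least 3 markers (-6.11), at least 5 marker UMIs (-1.49), *Ptprc*-positive members (-1.47), ribosomal limits (-0.078) and no *C1q* UMIs (-0.88). The cause was not tested. Pools held 1 to 187 members, and 41.7% of the 448 were in pool 18.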
